A study of Mus musculus with 6 samples.

Results

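The genes described here are 10 markers of resident cardiac fibroblasts: Tcf21, Dpt, Gsn, Pi16, Scara5, Islr, Dpep1, Ddr2, Thy1 and Cygb. They were taken by gene name from the deposited table of read counts, which lists 49315 genes, and all 10 were among the 14370 genes with enough reads to be tested. The libraries were made from mid-ventricular heart tissue of 3 adult wild-type mice (WT) and 3 adult mice with an endothelial-specific knockout of TET2 (TET2KO). Both groups had received Angiotensin II at 1.0 mg/kg/day for 28 days from minipumps under the skin, and untreated hearts were not analysed here. The knockout is therefore aimed at endothelial cells and not at the fibroblasts that carry these markers. Neither the Cre driver nor the deleted exons were named in the sources used here. Tet2 itself was measured at 4.27, 4.33 and 3.08 CPM (read counts scaled to library size with TMM factors) in the WT libraries and at 14.6, 8.01 and 10.4 CPM in the TET2KO libraries. It was thus higher, not lower, in the libraries labelled TET2KO (log2 fold change 1.49 ± 0.29, SE, n = 3 per group, adjusted p = 0.0065 with edgeR's quasi-likelihood test). Tet2 has a long transcript, and once a trend on length and GC, described below, had been removed, the difference was 0.27 ± 0.17 and did not pass the test (adjusted p = 0.21; 2.1e-06 to 0.43 over all alternatives). Without the position of the deletion these reads check the labels only in part. Every direction below is that of the libraries labelled TET2KO relative to those labelled WT.

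Resident fibroblasts of the heart descend mostly from the epicardium, lie between the cardiomyocytes and around vessels, and make and turn over the collagen network. In pressure-loaded or injured hearts they can take on an activated, matrix-producing state, and several genes of the quiescent cell are known to decline in that state. The 10 genes cover different parts of the cell: a transcription factor (Tcf21), a secreted matrix protein (Dpt), surface proteins and receptors (Pi16, Dpep1, Ddr2, Scara5, Islr, Thy1) and proteins of the cytoplasm (Gsn, Cygb). TET2 oxidises methylated cytosine, mostly at CpG sites, and is known as a regulator of DNA methylation at promoters and enhancers.

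The sequence before the start of a gene shows how different the members are in CpG content and in E-boxes, the motif class bound by basic helix-loop-helix factors such as TCF21. RefSeq promoter windows (GRCm38.p6, 250 bases before to 50 after the start) were given for 7 of the 10 members with 9 start sites, 3 of them for Gsn, and Scara5, Thy1 and Cygb had no entry. The windows of Ddr2, Islr, Pi16 and Gsn start sites 2 and 3, numbered by position, lie inside the GENCODE gene spans given further down. These RefSeq starts are therefore not the outermost starts of those genes. Below are the bases from 250 to 41 before the start for the 3 members that were lower and for Ddr2 and Islr, which were higher. Each is written 5′ to 3′ on the strand of the gene, with the E-box CAGCTG in capitals.
Tcf21, chr10:22820184-22820393, minus strand: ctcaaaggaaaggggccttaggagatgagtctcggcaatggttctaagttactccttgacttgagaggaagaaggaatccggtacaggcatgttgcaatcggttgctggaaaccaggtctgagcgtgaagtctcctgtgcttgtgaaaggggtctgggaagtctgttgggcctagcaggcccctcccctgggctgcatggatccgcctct
Dpt, chr1:164796413-164796622, plus strand: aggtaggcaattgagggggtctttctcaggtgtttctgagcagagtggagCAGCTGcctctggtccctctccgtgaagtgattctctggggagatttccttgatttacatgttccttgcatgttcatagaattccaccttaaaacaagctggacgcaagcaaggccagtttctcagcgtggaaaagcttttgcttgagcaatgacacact
Dpep1, chr8:123185985-123186194, plus strand: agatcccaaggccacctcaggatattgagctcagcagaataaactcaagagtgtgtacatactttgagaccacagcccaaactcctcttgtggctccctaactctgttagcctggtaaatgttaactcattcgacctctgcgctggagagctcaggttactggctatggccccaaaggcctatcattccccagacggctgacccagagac
Ddr2, chr1:170088985-170089194, minus strand: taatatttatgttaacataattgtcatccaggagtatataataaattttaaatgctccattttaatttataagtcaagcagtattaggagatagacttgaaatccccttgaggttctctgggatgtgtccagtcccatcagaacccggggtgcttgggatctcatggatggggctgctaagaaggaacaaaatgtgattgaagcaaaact
Islr, chr9:58158595-58158804, minus strand: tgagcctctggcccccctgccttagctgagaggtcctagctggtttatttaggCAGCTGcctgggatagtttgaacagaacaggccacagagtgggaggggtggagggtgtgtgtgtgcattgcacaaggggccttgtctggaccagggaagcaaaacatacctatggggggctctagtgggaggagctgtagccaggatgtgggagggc
In the whole window, CAGCTG, which reads the same on both strands, was found at 6 of the 9 start sites and in 5 of the 7 members (Dpt, Gsn, Pi16, Islr and Dpep1). It was found in 16.3% of all 32851 promoter windows. The windows of Tcf21 and Ddr2 did not hold these letters. The related E-box CATCTG, searched on both strands, was in 2 of the 9 windows (17.2% of all), and the TATA-box letters TATAAA, also on both strands, were in 2 of the 9 (13.6% of all). The TATAAA of Dpt began at base 13 after the start, and that of Ddr2 was on the opposite strand only. The 3 motifs were searched separately. CpG pairs ranged from 1 in the Islr window to 20 at one Gsn start, beside a median of 7 over all windows. Tcf21 had 8, Dpep1 9, Dpt 4, Pi16 3 and Ddr2 2, and the other two Gsn starts had 2 and 16. These letters describe the windows, and neither binding nor methylation was measured in these libraries.

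The libraries held 22124844 to 30418909 counted reads. Long transcripts were higher and short ones lower in the libraries labelled TET2KO: the median log2 fold change was -1.29 in the shortest 10% of tested genes (at most 1094 nt) and 1.38 in the longest 10% (at least 6549 nt). Each member is therefore given as counted and after a smooth trend on transcript length and GC content had been removed from each library ("trend removed"). The cause of the trend was not tested. Replicates of a group differed by more than sampling noise. Over genes in general, chi-square per degree of freedom was 11.9 to 15.2 between WT libraries. It was 260 between TET2KO replicates 1 and 2, 120 between 2 and 3, and 41.4 between 1 and 3. In 9 of the 10 members TET2KO replicate 2 was the one of its group nearest to the WT mean. The share of all tested genes with that order was not counted, so it is not shown to be a trait of the members. In bulk tissue, fewer cells of a type and less RNA per cell cannot be told apart.

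As counted, 6 of the 10 members were higher (Ddr2, Scara5, Cygb, Gsn, Islr and Pi16), 3 were lower (Dpt, Tcf21 and Dpep1) and Thy1 did not pass the test (edgeR's quasi-likelihood test, Benjamini-Hochberg adjusted p under 0.05 over all tested genes). Over all tested genes 62.9% passed the same test, 33.4% higher and 29.4% lower, so a large share of members past the test is also what genes in general showed. The members' log2 fold changes ran from -0.97 for Dpt to 1.89 for Ddr2, with a median of 0.52 beside 0.046 over all tested genes. The CPM values of the groups did not overlap in 9 of the 10 members, against 73.5% of all tested genes. Summed over the 10 genes, the level was 1024 to 1087 CPM in the WT libraries and 1202 to 1444 CPM in TET2KO, a sum that is mostly Gsn. Members past the test thus lay on both sides of 0.

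**Figure D1:**
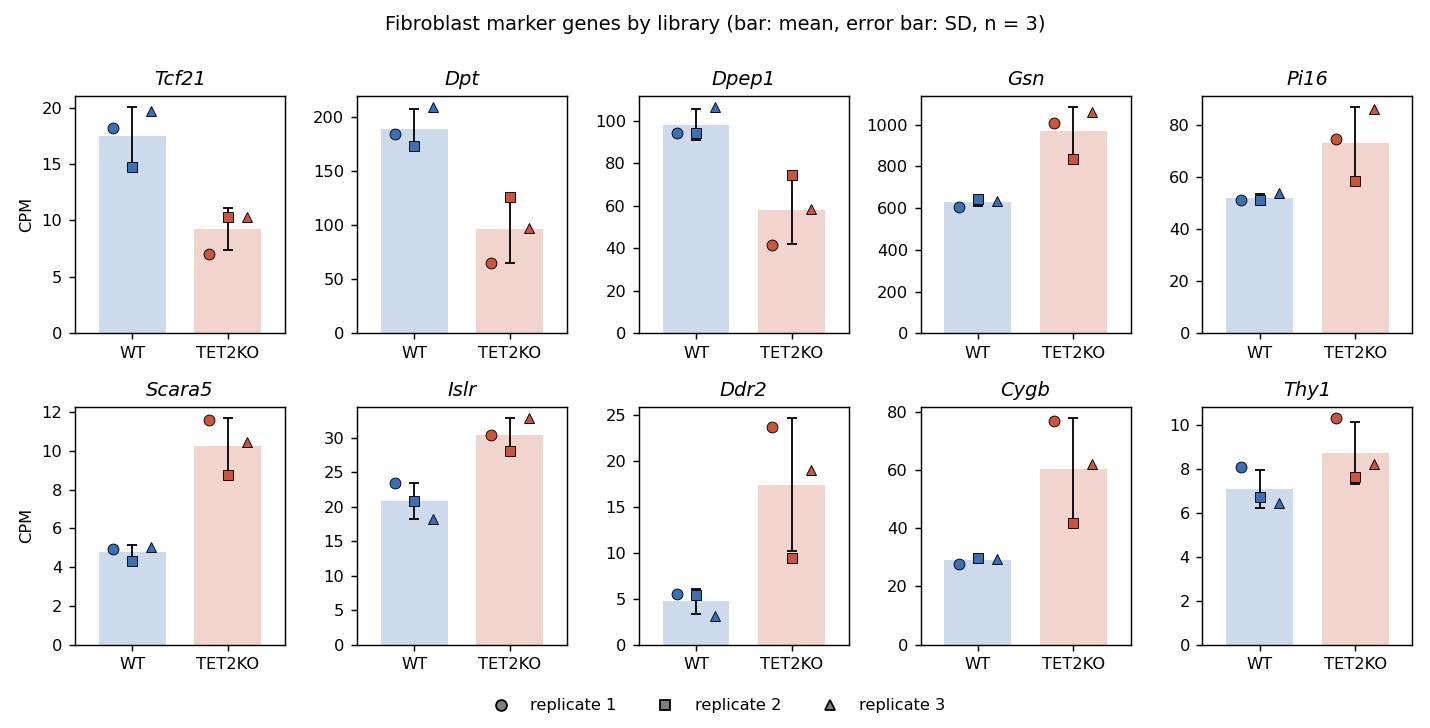
CPM of the 10 members in each of the 3 WT and 3 TET2KO libraries, with bars at the group means. Dpt, Tcf21 and Dpep1 lie lower in every TET2KO library, Thy1 overlaps, and the other members lie higher in every TET2KO library.

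On the per-length scale of the deposited TPM values, the order of levels in WT was Gsn (mean 314 TPM), Dpt (172), Dpep1 (62.0), Tcf21 (22.4 ± 1.49, SD, n = 3), Pi16 (20.6 ± 1.32), Cygb (19.6 ± 1.96), Islr (12.3), Thy1 (3.72), Scara5 (1.23) and Ddr2 (0.806). The WT values of Tcf21, Pi16 and Cygb overlapped their neighbours in this order, and the other steps did not overlap. In TET2KO, Gsn (756 ± 144 TPM) and Dpt (134 ± 31.0) stayed the highest. Cygb came next (64.5 ± 24.6), ahead of Dpep1 (56.3 ± 10.8) and Pi16 (45.2 ± 10.9), and these 3 overlapped in turn. Islr (27.9 ± 3.91), Tcf21 (18.3 ± 2.43) and Thy1 (7.21 ± 1.87) followed. Ddr2 (4.71 ± 2.32) and Scara5 (4.17 ± 0.967) were the lowest, and Thy1 overlapped Ddr2 and Ddr2 overlapped Scara5. Cygb moved from rank 6 to rank 3 and Tcf21 from rank 4 to rank 7.

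**Figure D2:**
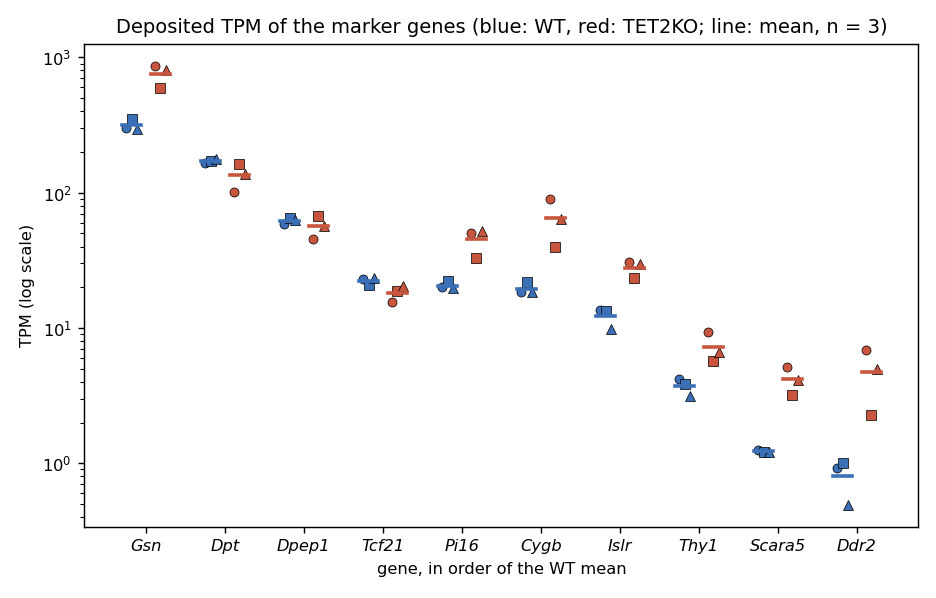
Deposited TPM of the members in each library (log axis), ordered by the WT mean. Gsn is the highest in both groups, and the 3 WT values of Tcf21, Pi16 and Cygb run into each other.

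Tcf21 encodes the basic helix-loop-helix factor that epicardial cells need to become fibroblasts, and it lies at chr10:22817281-22820174 on the minus strand (GRCm38, GENCODE M21, as for all positions below). It had 18.2, 14.7 and 19.7 CPM in the WT libraries and 7.07, 10.3 and 10.3 CPM in those labelled TET2KO. Every TET2KO library lay below every WT library. The mean fell from 17.5 ± 2.54 to 9.23 ± 1.87 CPM, 1.90-fold lower (log2 fold change -0.92 ± 0.22, adjusted p = 0.0098). The length of its longest transcript, 1788 nt, puts it among genes with a median log2 fold change of -0.50 (class 3 of 10 by length). Once the trend was removed, the difference was -0.35 ± 0.16 and did not pass the test (adjusted p = 0.10; 0.00024 to 0.76 over all alternatives).

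Dpt encodes dermatopontin, a small extracellular matrix protein that binds decorin and takes part in collagen fibril assembly (chr1:164796644-164824266, plus strand). The WT libraries had 184, 173 and 210 CPM and the TET2KO libraries 64.7, 126 and 97.8 CPM. Again no TET2KO value reached the WT range, and replicate 1 was the lowest. The mean went from 189 ± 18.6 to 96.2 ± 30.7 CPM, 1.96-fold lower, which was the steepest fall among the members (log2 fold change -0.97 ± 0.26, adjusted p = 0.013). At 1724 nt it is in the same length class as Tcf21. After trend removal its difference was -0.33 ± 0.14 (adjusted p = 0.088; 1.1e-05 to 0.23 over all alternatives). Tcf21 and Dpt were therefore lower as counted, by close to the same fold, and neither passed once the trend was removed.

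Dpep1 encodes a membrane dipeptidase that cleaves cysteinyl-glycine and leukotriene D4 outside the cell (chr8:123186242-123201812, plus strand). It had 94.0, 94.0 and 106 CPM in the WT libraries and 41.5, 74.3 and 58.5 CPM in TET2KO. The groups did not overlap, and replicate 2 was the highest of the TET2KO libraries. The fall from 98.1 ± 7.16 to 58.1 ± 16.4 CPM was 1.69-fold (log2 fold change -0.76 ± 0.23, adjusted p = 0.021). At the length (2236 nt) and GC content of Dpep1 the fitted trend differed between the groups by 0.012 on the log2 scale, and the trend-removed value was as large, -0.77 ± 0.19 (adjusted p = 0.012; 1.3e-05 to 0.41 over all alternatives). Dpep1 was the one member lower both as counted and with the trend removed.

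Ddr2 encodes discoidin domain receptor 2, a receptor tyrosine kinase that fibrillar collagen activates (chr1:169972307-170110762, minus strand). Its WT libraries had 5.52, 5.40 and 3.14 CPM, from 115, 132 and 56 reads, and its TET2KO libraries 23.6, 9.44 and 19.0 CPM, from 876, 283 and 599 reads. All TET2KO values were above all WT values, with replicate 2 the lowest of them. The mean was 3.70-fold higher, 17.4 ± 7.24 against 4.68 ± 1.34 CPM (a log2 fold change of 1.89 ± 0.38, adjusted p = 0.0066). Ddr2 has the longest transcript of the members, 8590 nt, and the median log2 fold change in its length class was 1.38. With the trend removed it was still higher, by 0.70 ± 0.19 on the log2 scale (adjusted p = 0.016; 1.5e-10 to 0.065 over all alternatives). An antisense gene, 3110045C21Rik, overlaps 90 nt of its exons and had at most 109 reads in any library, and no source used here says whether the counting used strand.

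Cygb encodes cytoglobin, a haem protein of fibroblasts and stellate cells that binds oxygen and can break down nitric oxide (chr11:116645595-116654313, minus strand). The WT libraries were close together at 27.7, 29.6 and 29.5 CPM, and the TET2KO libraries spread over 76.9, 41.8 and 61.9 CPM. Every TET2KO value was above the WT range. The mean rose 2.08-fold, from 28.9 ± 1.06 to 60.2 ± 17.6 CPM (a log2 fold change of 1.06 ± 0.23, adjusted p = 0.0073). After trend removal the rise was 0.34 ± 0.12 on the log2 scale (adjusted p = 0.046; 2.6e-07 to 0.15 over all alternatives), just past the threshold. Prcd, on the other strand, shares 201 nt of exon with Cygb and had at most 95 reads in any library.

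Scara5 encodes a class A scavenger receptor that takes up ferritin (chr14:65666403-65764826, plus strand). It had 4.94, 4.33 and 5.04 CPM in the WT libraries and 11.6, 8.77 and 10.4 CPM in TET2KO, with no overlap. The mean of 10.3 ± 1.42 CPM was 2.15-fold above the WT mean of 4.77 ± 0.384 CPM (a log2 fold change of 1.11 ± 0.21, adjusted p = 0.0065). Trend removal left a difference of 0.39 ± 0.15 and did not pass (adjusted p = 0.064; 2e-05 to 0.31 over all alternatives).

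Gsn encodes gelsolin, a calcium-regulated protein that severs and caps actin filaments and also has a secreted form (chr2:35256380-35307892, plus strand). WT libraries had 607, 642 and 636 CPM and TET2KO libraries 1009, 837 and 1059 CPM, so the groups were apart. The 1.54-fold rise from 628 ± 18.6 to 968 ± 116 CPM passed the test (log2 fold change 0.62 ± 0.19, adjusted p = 0.022). Genes in its length class had a median of -0.022, but at its length and GC content together, 2653 nt and 57.1%, the fitted trend differed by 0.76. The remainder was -0.14 ± 0.11 (adjusted p = 0.35; 0.00066 to 0.87 over all alternatives).

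Islr encodes meflin, a membrane-anchored leucine-rich repeat protein of mesenchymal stromal cells and fibroblasts (chr9:58156268-58204306, minus strand). The WT libraries had 23.5, 20.8 and 18.2 CPM, all below the 30.4, 28.2 and 32.9 CPM of the TET2KO libraries. The mean rose 1.46-fold, from 20.8 ± 2.64 to 30.5 ± 2.37 CPM (a log2 fold change of 0.55 ± 0.16, adjusted p = 0.020). Trend removal left 0.26 ± 0.14 (adjusted p = 0.15; 0.001 to 0.42 over all alternatives). Its neighbour Islr2, on the same strand, shares 181 nt of exon and had at most 50 reads in any library.

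Pi16 encodes peptidase inhibitor 16, a protein of the cell surface that marks fibroblasts of the vessel adventitia (chr17:29317680-29330593, plus strand). It had 51.3, 51.2 and 53.7 CPM in the WT libraries and 74.8, 58.3 and 85.9 CPM in TET2KO. TET2KO replicate 2 was only slightly above the WT range. As counted the mean rose 1.40-fold, from 52.1 ± 1.42 to 73.0 ± 13.9 CPM (a log2 fold change of 0.49 ± 0.18, adjusted p = 0.044). With the trend removed Pi16 was lower and past the test in that direction, at -0.71 ± 0.16 (adjusted p = 0.0075; 5e-05 to 0.19 over all alternatives). The same turn, higher as counted and lower with the trend removed, both past the test, was found in 1.21% of tested genes. The fitted trend at its length of 3994 nt was 1.20, the largest among the members. When the trend was fitted on the gene lengths implied by the deposited counts and TPM values, the difference was -0.22 ± 0.13 and did not pass. The direction of Pi16 therefore depends on how length is treated. An antisense transcript, AC162182.1, shares 222 nt of exon with Pi16 and has no row in the count table.

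Thy1 encodes CD90, a surface glycoprotein held by a lipid anchor on fibroblasts, T cells and neurons (chr9:44043384-44048579, plus strand). Its WT libraries had 8.07, 6.70 and 6.44 CPM and its TET2KO libraries 10.3, 7.64 and 8.22 CPM, and the groups overlapped. The means of 7.07 ± 0.872 and 8.72 ± 1.40 CPM gave a log2 fold change of 0.30 ± 0.21 (adjusted p = 0.24). The trend-removed value was 0.50 ± 0.19 (adjusted p = 0.062; 0.0071 to 0.73 over all alternatives). Of 10 T cell markers, 2 had enough reads to be tested and both were lower, beside 29.4% of all tested genes. With the trend removed 1 was lower, beside 24.3% of all tested genes. The T cell list summed to 2.88 to 4.01 CPM in the WT libraries and 2.13 to 2.43 CPM in TET2KO, and Cd3d, Cd3e, Cd3g, Cd4 and Cd8a were below the read filter. The Schwann cell and neuronal list summed to 54.6 to 59.7 CPM in the WT libraries and 29.3 to 40.8 CPM in TET2KO. As TPM the sums of both lists overlapped between the groups, at 2.56 to 4.09 and 2.93 to 3.40 for T cells and at 32.3 to 36.3 and 31.4 to 33.6 for the Schwann cell and neuronal list. The part of these cells in the Thy1 level was not tested.

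**Figure D3:**
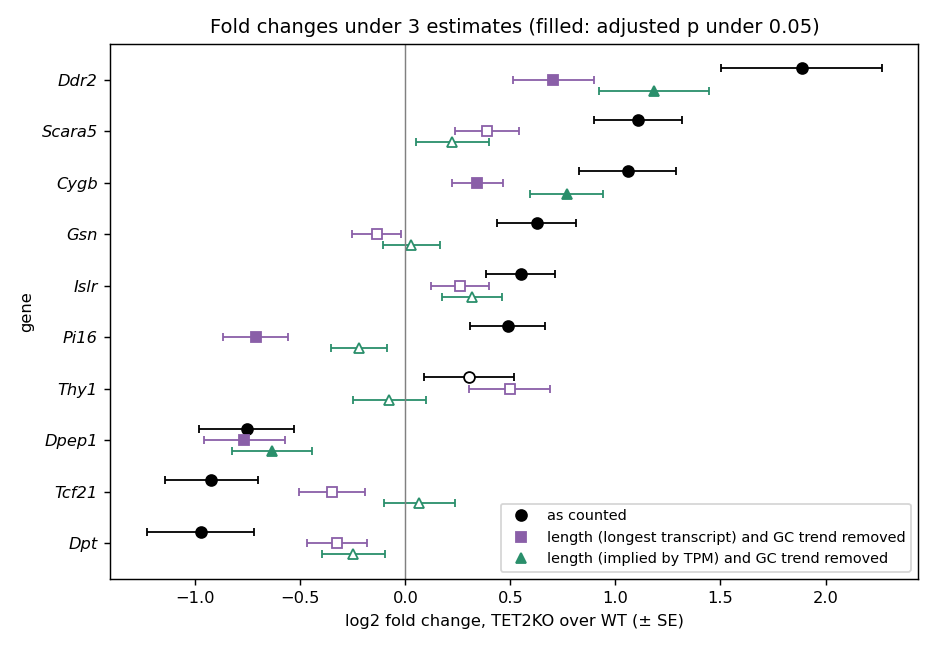
Log2 fold change of each member, TET2KO over WT, with 1 SE, in 3 estimates: as counted, with the trend removed on annotated transcript length and GC content, and with the trend on the length implied by TPM. Dpep1, Ddr2 and Cygb keep their side of 0 and pass the test in all 3, and Pi16, Gsn, Tcf21 and Thy1 have estimates on both sides of 0.

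With the trend removed, 2 of the 10 members were higher (Ddr2 and Cygb), 2 were lower (Pi16 and Dpep1) and 6 did not pass, beside 46.2% of all tested genes past the test, 21.9% higher and 24.3% lower. The median over the members fell from 0.52 as counted to 0.061, beside -0.030 over all genes. With the length implied by the deposited TPM values in the trend, an alternative chosen after seeing the data, Ddr2 (1.18 ± 0.26) and Cygb (0.77 ± 0.18) were higher and Dpep1 (-0.64 ± 0.19) was lower, beside 24.2% and 26.3% of all genes, 50.4% in all. Dpep1, Ddr2 and Cygb, 3 of the 10, thus passed in the same direction in all 3 estimates. The share of all tested genes that did so was not counted, so these 3 are not shown to stand out. The 2 lengths differ most for Thy1 (1735 and 2995 nt), Scara5 (3794 and 6093 nt) and Tcf21 (1788 and 1223 nt). For Tcf21 the second estimate was 0.066 ± 0.17, so that its fall as counted was not seen there.

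**Figure D4:**
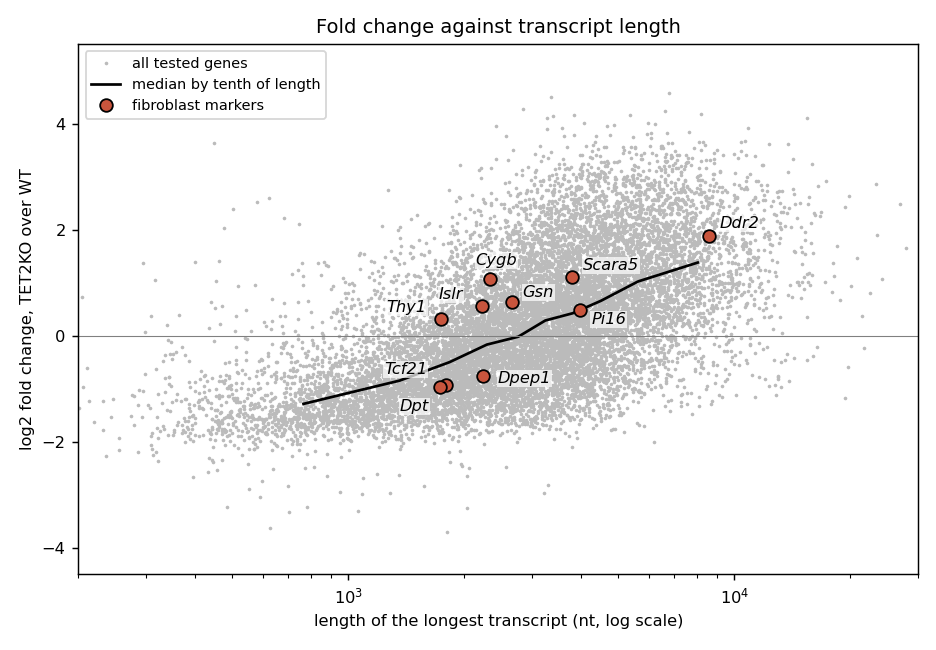
Log2 fold change, TET2KO over WT, against the length of the longest transcript (log axis) for the members, with the median of all tested genes in each of 10 length classes. The medians run from -1.29 in the shortest class to 1.38 in the longest, and Tcf21, Dpt and Dpep1 lie below the median of their class while the other members lie above theirs.

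The scaling of the libraries also bore on the 3 lower members. With library totals in place of TMM factors the median of all genes moved from 0.046 to 0.47, and 74.2% of the calls were higher, against 53.2% with TMM. Tcf21, Dpt and Dpep1 were then at -0.49, -0.55 and -0.34 and no longer passed the test, and Thy1 passed as higher, at 0.74. On the scale of log2(TPM + 1), where 79.3% of the calls were higher, they were at -0.28, -0.38 and -0.15 and did not pass either. Tcf21, Scara5, Ddr2 and Cygb passed as counted whichever of the 6 libraries was left out. Dpt did not pass without WT replicate 3 (-0.90). Dpep1 did not pass without any one of WT replicates 1 to 3 (-0.79, -0.79 and -0.70) or TET2KO replicate 3 (-0.72). Gsn missed the threshold without any one WT library (0.59, 0.63 and 0.62) or TET2KO replicate 3 (0.60), and Islr without WT replicate 2 (0.54) or 3 (0.45) or TET2KO replicate 3 (0.53). Of these fits, Pi16 passed as higher only without TET2KO replicate 2, and its values ran from 0.40 to 0.65. With the trend removed, Ddr2 missed the threshold without WT replicate 3 (0.56) or TET2KO replicate 3 (0.65), Dpep1 without WT replicate 3 (-0.72), and Cygb without any library other than TET2KO replicate 2 (0.26 to 0.37). Pi16 was lower in each of those 6 fits.

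The authors' deposited table gave the same sign as here for all 10 members, with an adjusted p under 0.05 for 8 of them, beside 65.0% of the 14370 genes in it. In the authors' deposited table Pi16 (log2 fold change 0.43, adjusted p = 0.056) and Thy1 (0.25, adjusted p = 0.35) were the exceptions. The authors compared the same libraries, so the shared signs are not an independent check. The authors' deposited table of significant genes holds 6254 of the 14370 genes, with a smallest absolute log2 fold change of 1.00. Dpt (-1.02), Scara5 (1.05) and Ddr2 (1.83) were in it, a smaller share of the 10 members than of all genes. Cygb, at 0.999 in the authors' comparison, fell just outside the table of significant genes.

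Across the 6 libraries the member most like each other member was found by the mean absolute difference of their log2 CPM values, each centred on the gene's mean. Dpt and Dpep1 were closest to each other (0.114), and Tcf21 was closest to Dpep1 (0.132). Among the higher members Gsn paired with Pi16 (0.0885) and Scara5 with Cygb (0.131), while Islr lay nearest to Gsn (0.109). Thy1, which did not pass the test, lay nearest to Pi16 (0.166). Ddr2 had no close partner, with Cygb nearest at 0.411. The centred values keep the difference between the groups, so genes of one direction tend to pair, and the pairs largely restate the fold changes above. The values also share libraries and scaling factors, so this is a description of these 6 libraries.

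Relatives of the members in their protein families also lay on both sides of 0. Of 18 such genes 14 were tested, with 5 higher, 4 lower and 5 not past the test, beside 33.4% higher and 29.4% lower over all tested genes. Msc, which encodes musculin, a basic helix-loop-helix factor related to TCF21, was lower (-1.16 ± 0.25, trend removed -1.18 ± 0.20). Tcf15 (-0.054 ± 0.21) and Tcf23 (0.60 ± 0.44), of the same class, did not pass. Ddr1, the second collagen receptor of its kind, was higher as counted, like Ddr2 (2.65 ± 0.50, trend removed 0.74 ± 0.23). The gelsolin family was split: Flii (2.33 ± 0.38) and Svil (2.32 ± 0.45) were higher while Capg (-0.84 ± 0.14) and Scin (-1.07 ± 0.25) were lower, in each case on the same side with the trend removed. The trend-removed calls of Ddr1 and Svil were each lost in 4 of the 6 fits that left out 1 library: Ddr1 without WT replicate 1 or 3 or TET2KO replicate 1 or 3, and Svil when any 1 WT library or TET2KO replicate 3 was left out. Capg was lost without TET2KO replicate 3. On the scale of log2(TPM + 1), Msc (-0.38), Capg (-0.20) and Scin (-0.37) did not pass, nor did Scin with library totals (-0.65). Mb, which encodes the myoglobin of cardiomyocytes and is a globin like Cygb, was lower as counted (-0.78 ± 0.24) and at 0.066 with the trend removed, and as counted it did not pass when any 1 WT library or TET2KO replicate 3 was left out.

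Other fibroblast markers, like tested genes in general, had genes past the test in both directions. All 24 such genes were tested: 13 passed as higher and 4 as lower, and 7 did not pass, with a median log2 fold change of 0.77. Over all tested genes 33.4% were higher and 29.4% lower, with a median of 0.046. With the trend removed, 7 of the 24 were higher and 5 lower, with a median of 0.19. The shares over all genes were then 21.9% and 24.3%, with a median of -0.030. Pdgfra, the growth factor receptor by which these cells are often sorted, rose from 9.56 ± 1.76 to 19.6 ± 7.38 CPM (1.04 ± 0.32, adjusted p = 0.024), but was at -0.23 ± 0.16 with the trend removed and missed the threshold when any 1 library other than TET2KO replicate 2 was left out. Decorin (Dcn), a proteoglycan that binds collagen, fell from 809 ± 35.6 to 469 ± 103 CPM (-0.79 ± 0.22) and its relative lumican (Lum) from 122 ± 7.06 to 78.5 ± 9.75 CPM (-0.64 ± 0.16). With the trend removed they were at 0.18 ± 0.10 and 0.17 ± 0.13, and neither passed. As counted, Dcn did not pass when WT replicate 1, WT replicate 3 or TET2KO replicate 3 was left out, and Lum when WT replicate 2 or TET2KO replicate 3 was. Medag, which encodes a protein of fat-forming mesenchymal cells, was lower in both estimates (-1.004 ± 0.20 and -0.91 ± 0.17). On the scale of log2(TPM + 1) Medag did not pass (-0.36). Fbln1, which encodes the matrix protein fibulin-1, was higher in both (1.54 ± 0.27 and 0.46 ± 0.13), although the trend-removed call was lost in 4 of the 6 fits that left out 1 library, those leaving out a WT library or TET2KO replicate 3. Col1a1, a chain of type I collagen, was also higher in both (3.80 ± 0.77 and 1.29 ± 0.35). Its value as counted ran from 3.06 without TET2KO replicate 1 to 4.33 without TET2KO replicate 2, and with the trend removed it did not pass without WT replicate 1 (1.21). Htra3, a secreted protease, was higher as counted only (1.57 ± 0.27). Col3a1, the chain of type III collagen, did not pass as counted (0.63 ± 0.42) and was lower with the trend removed (-0.88 ± 0.22).

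Pi16 is also an adventitial marker, and 10 other adventitial fibroblast markers had 2 higher, 4 lower and 4 not past the test, with a median of -0.54. After trend removal 3 were higher and 3 lower, and the median was 0.088. Their sum was 639 to 650 CPM in the WT libraries and 553 to 594 CPM in TET2KO, but in TPM it ran the other way, 335 to 364 against 386 to 403. Pcsk6, a secreted convertase, and Limch1, an actin-binding protein, were higher (2.35 ± 0.36 and 2.30 ± 0.41, trend removed 0.76 ± 0.15 and 1.19 ± 0.22). Igfbp6, which binds insulin-like growth factors, and Ackr3, a chemokine scavenger receptor, were lower (-0.95 ± 0.20 and -0.82 ± 0.21, trend removed -0.47 ± 0.13 and -0.93 ± 0.18). Trend-removed Igfbp6 did not pass without WT replicate 1 or 3 or TET2KO replicate 1 or 3. On the scale of log2(TPM + 1), neither Igfbp6 (-0.32) nor Ackr3 (-0.21) passed, nor did Ackr3 with library totals (-0.40). Cd55, a complement regulator, was lower as counted (-0.81 ± 0.23) and at 0.055 with the trend removed, and as counted it did not pass without WT replicate 1 or 3 or TET2KO replicate 3. That list, like the members, had genes past the test on both sides. So did all tested genes, with 33.4% higher and 29.4% lower as counted, and 21.9% and 24.3% with the trend removed.

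**Figure D5:**
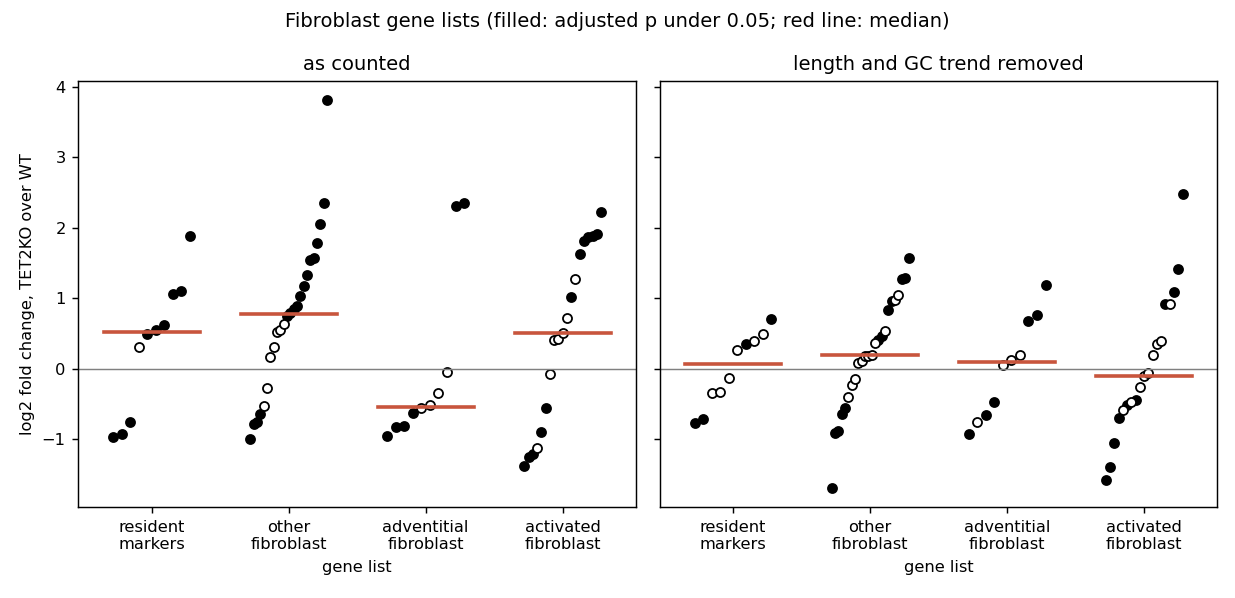
Log2 fold changes, TET2KO over WT, of the genes in the fibroblast lists, as counted and with the trend removed; each point is a gene and the line is the list's median. The other fibroblast markers have a median of 0.77 as counted and 0.19 with the trend removed, and genes lie on both sides of 0 in each list.

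Of 20 markers of activated fibroblasts 19 were tested, with 7 higher, 5 lower and 7 not past the test (median 0.51). With the trend removed 4 were higher and 6 lower (median -0.10). The shares over all tested genes were 33.4% higher and 29.4% lower as counted, and 21.9% and 24.3% with the trend removed. The activated markers summed to 461 to 593 CPM in the WT libraries and 445 to 579 CPM in TET2KO, which overlapped. In TPM the sums were 305 to 423 and 437 to 533, which did not overlap. Postn, which encodes periostin, a matrix protein of activated fibroblasts, was at 0.72 ± 0.33 as counted, which did not pass (adjusted p = 0.087), and at 1.08 ± 0.34 with the trend removed, which did. With the TPM-implied length in the trend it was at 0.18 ± 0.23 and did not pass, nor did it with the trend removed when any 1 library other than TET2KO replicate 2 was left out. Acta2, smooth muscle actin, did not pass as counted (-0.08 ± 0.30). Ddah1, an enzyme that degrades methylated arginines, and Ckap4, a membrane protein of the endoplasmic reticulum, were higher (1.87 ± 0.32 and 1.91 ± 0.40, trend removed 1.41 and 0.91). Transgelin (Tagln), found in contractile cells, Fap, a surface protease, and Thbs4, a matrix glycoprotein, were lower (-1.25 ± 0.25, -1.21 ± 0.25 and -0.90 ± 0.21, trend removed -0.71, -0.52 and -1.58). Trend-removed Fap did not pass without WT replicate 1 or 2 or TET2KO replicate 1 or 3, nor Ckap4 without WT replicate 1 or 3 or TET2KO replicate 3. On the scale of log2(TPM + 1), Fap (-0.42) and Thbs4 (-0.23) did not pass, nor did Thbs4 with library totals (-0.46). Cilp, a matrix protein of cartilage and loaded hearts, was higher as counted (1.02 ± 0.27), except without WT replicate 1 or 3, and at -0.06 with the trend removed.

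Markers of other cell types moved as well, and their part in the members' values was not tested. Over all tested genes 33.4% were higher and 29.4% lower as counted, and 21.9% and 24.3% with the trend removed. The cardiomyocyte list (5 of 12 higher, 6 lower) summed to 96621 to 119027 CPM in the WT libraries and 63967 to 71318 CPM in TET2KO, the endothelial list (8 of 12 higher, 3 lower) to 573 to 629 and 639 to 1148 CPM. Mural cell markers (5 of 10 higher, 3 lower) summed to 2012 to 2234 and 1308 to 1800 CPM, and macrophage markers (3 of 10 higher, 3 lower) to 689 to 822 and 301 to 453 CPM. Red cell genes (0 of 5 higher, 5 lower) ran from 1554 to 7037 CPM in the WT libraries and from 165 to 741 CPM in TET2KO. Epicardial and mesothelial markers, the lineage from which Tcf21-expressing cells arise, had 4 of 11 genes tested, 2 higher and 0 lower, and summed to 7.95 to 30.6 and 10.8 to 19.2 CPM, highest in WT replicate 1. Adipocyte markers had 2 of 6 genes tested, neither past the test, at 1.68 to 2.86 and 1.46 to 5.91 CPM. In the Schwann cell and neuronal list 5 of 10 genes were tested, 0 higher and 3 lower. Trend removal left 0 higher and 2 lower in that list, and 1 higher and 0 lower among the epicardial and mesothelial markers. After trend removal the counts were 6 higher and 3 lower for cardiomyocytes, whose median moved from -0.43 to 0.33, and 6 and 2 for endothelial, 4 and 3 for mural, 2 and 3 for macrophage and 0 and 5 for red cell genes. In TPM the mural sums overlapped, at 723 to 921 in WT and 750 to 939 in TET2KO. No gene of these lists was at 0 in all 6 libraries.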

How the data were processed

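Heart RNA selected for poly(A) was read as 150 nt pairs, per the labels' protocols, with 1 batch label throughout. STAR 2.5.2b, Trimmomatic 0.36, DESeq2, featureCounts and Subread 1.5.2 are listed without roles in the submitters' processing notes, as is the build GRCm38, and neither an annotation release nor a strand setting was named. The table deposited by the authors holds raw counts of reads per gene, without normalization, and a second deposited table holds TPM values. Log2 fold changes and p-values are in their comparison table, per the file headers. The series design calls the 3 mice per group biological replicates.

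Counts were tested with edgeR 4.0.16 in R 4.3.3 (quasi-likelihood test, robust, TMM factors, filterByExpr, Benjamini-Hochberg adjustment over all 14370 tested genes, threshold 0.05). CPM values use the TMM-scaled library sizes. Errors of log2 fold changes are SE, derived as the absolute log2 fold change divided by the square root of the test's F statistic. Those of CPM and TPM are SD over 3 libraries. For trend removal, each library's log2 CPM deviation was fitted on the length and GC content of the longest GENCODE M21 transcript (mgcv 1.9.3, 6 basis functions per axis, prior count 2) and used as an offset, for 14341 genes. Alternatives were RLE factors, library totals, DESeq2 1.42.0, limma-voom and limma-trend (limma 3.58.1) on log2(TPM + 1) and log2(TPM + 0.1), no filter, CPM of at least 1 in 3 libraries, a replicate block, and leaving out each library. Scripts were tested on simulated data, with the results given in the last paragraph. The members and marker lists were chosen with earlier results of these data known. All members were named, and from each other list up to 3 higher and 3 lower genes with the smallest p and a mean log2 CPM of at least 1, plus Tet2, Pdgfra, Dcn, Lum, Col1a1, Col3a1, Postn, Acta2 and relatives of the members.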

Additional observations from a re-analysis of the deposited data

How the results depend on the processing

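Results are log2 fold changes or numbers of genes past the test, and the cause of a change was not tested unless stated. With the length and GC trend removed, 2 members, 7 other fibroblast markers, 4 activated markers and 3142 of all genes were higher, and Tcf21 (-0.35), Dpt (-0.33), Gsn (-0.14), Pi16 (-0.71), Scara5 (0.39), Islr (0.26), Tet2 (0.27), Htra3 (0.36), Pdgfra (-0.23), Dcn (0.18), Lum (0.17), Col3a1 (-0.88), Cd55 (0.055), Acta2 (0.35), Cilp (-0.063) and Mb (0.066) lost the call or changed sign. With the length implied by TPM in the trend, 2 members were higher and 1 lower and 3 activated markers were higher, with Tcf21 at 0.066, Dpt -0.25, Gsn 0.029, Pi16 -0.22, Scara5 0.22, Islr 0.32, Thy1 -0.076, Pdgfra -0.032, Dcn 0.070, Lum 0.28, Col3a1 -0.87, Acta2 0.63 and Mb 0.011.

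With library totals 0 members, 1 other fibroblast marker, 3 activated markers and 2270 of all genes were lower, with Tcf21 at -0.49, Dpt -0.55, Dpep1 -0.34, Thy1 0.74 and Acta2 0.36. On log2(TPM + 1), 0 members, 0 other fibroblast markers, 2 activated markers and 1866 of all genes were lower, with Tcf21 at -0.28, Dpt -0.38, Dpep1 -0.15, Thy1 0.78 and Acta2 0.60. On log2(TPM + 0.1) the numbers lower were 0, 0, 2 and 1906, 7277 of all genes were higher, and the values were Tcf21 -0.30, Dpt -0.39, Dpep1 -0.16, Thy1 0.92 and Acta2 0.60. Pi16 was at 0.45 with RLE factors, 0.45 with DESeq2 and 0.47 with limma-voom and did not pass, limma-voom called 4 activated markers higher, and without a filter Acta2 was at 0.0023.

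Replicate numbers are shared between the groups, and no label used here says whether they pair the mice. Deviations of same-numbered libraries had correlations of 0.044, -0.32 and -0.044, beside -0.36 to 0.36 for differently numbered ones. With 3 libraries per group these values cannot settle whether the mice were paired. With the replicate number as a block, 3 members and 4 activated markers were higher, and Gsn (0.62), Pi16 (0.47) and Islr (0.55) did not pass. The replicate block with the trend removed gave 1 member, 7 other fibroblast and 4 activated markers higher and 5713 genes past the test, 2730 of them higher, with Tcf21 at -0.35, Dpt -0.34, Gsn -0.14, Pi16 -0.73, Scara5 0.39, Islr 0.27, Cygb 0.33, Pdgfra -0.23, Dcn 0.18, Lum 0.17, Col3a1 -0.86, Cd55 0.057, Acta2 0.40, Cilp -0.073 and Mb 0.066.

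Leaving out 1 library at a time, as counted and with the trend removed together, gave 0 to 6 members higher, 1 to 3 members lower, 5 to 15 other fibroblast markers higher, 2 to 6 other fibroblast markers lower, 2 to 12 activated markers higher, 3 to 6 activated markers lower, 4027 to 11178 genes past the test, 1986 to 5928 genes higher, 2012 to 5250 genes lower. The ranges of the log2 fold changes were Tcf21 -1.04 to -0.27, Dpt -1.20 to -0.20, Gsn -0.22 to 0.74, Pi16 -0.85 to 0.65, Scara5 0.28 to 1.23, Islr 0.16 to 0.63, Dpep1 -1.003 to -0.53, Ddr2 0.56 to 2.19, Thy1 0.20 to 0.60, Cygb 0.26 to 1.28, Pdgfra -0.33 to 1.33, Dcn -0.95 to 0.20, Lum -0.71 to 0.26, Col3a1 -1.03 to 0.98, Cd55 -1.03 to 0.091, Acta2 -0.24 to 0.68, Cilp -0.14 to 1.30, Mb -0.90 to 0.073. With 3 mice per group and totals of 22124844 to 30418909 reads, changes near the SE of 0.16 to 0.38 seen for the members were not resolved. Larger changes could be missed as well. In simulated counts without a trend, the as-counted test recovered 16% of log2 fold changes of 1 and 83% of those of 2. With the trend added and not removed, it called 6462 unchanged genes, against 13 with removal. Removal there recovered 61% and 94%.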
